A study of Mus musculus with 11 samples.

Results

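The insulin-like growth factor (IGF) axis was examined in CD34+ and CD34- keratinocytes from the back skin of K5-myrAkt(L84) mice. It was taken as 10 genes, namely the ligand gene Igf1, the receptor genes Igf1r and Insr, the adaptor gene Irs1 and the binding protein genes Igfbp2, Igfbp3, Igfbp4, Igfbp5, Igfbp6 and Igfbp7. All probe sets whose annotation gives exactly 1 gene symbol from this list were taken, which gave 28 of the 45101 probe sets on the array. Each probe set, a group of short probes against 1 stretch of transcript, is reported apart. The groups compared were CD34+ cells (5 arrays) and CD34- cells (6 arrays), and every mouse carried the same transgene, an activated Akt (myrAkt) under the keratin 5 promoter, which acts in basal keratinocytes. The cells had been bound by an antibody against CD34, a surface marker of follicle bulge stem cells, and separated with magnetic beads. No cells without the transgene were analysed here, so no effect of Akt is measured, and the labels give no age, sex or hair cycle stage. Nothing in them tells whether each array stands for a mouse of its own, and p-values therefore cover only the spread between the arrays, which may be technical. For the CD34- samples the stated cell type is also follicle stem cells, while the design text calls them only CD34- cells.

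IGF1 binds the IGF1 receptor, a tyrosine kinase close in structure to the insulin receptor. Both receptors pass their signal to adaptors such as IRS1, then to PI3 kinase and Akt, so in these mice a kinase downstream of the receptors is active by construction. The IGF binding proteins are secreted proteins that hold IGFs in the extracellular space and can either block or prolong their action. In skin, IGF1 comes largely from dermal cells, including those of the dermal papilla, and supports hair growth.

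Binding protein genes differed in both directions between the fractions, while the receptor and adaptor genes did not pass the test with values as deposited. Igfbp5, Igfbp7 and Igfbp6 were higher in CD34+ cells, by 14.6-fold, 6.75-fold and 2.64-fold on their called probe sets. Igfbp3 and Igfbp4 were lower in CD34+ cells, with log2 differences between -0.65 and -1.44 on their called probe sets. Values are log2 MAS5 signals and all differences are CD34+ minus CD34- on that scale. A probe set was called at an adjusted p under 0.05 in a limma model fitted to 20967 probe sets, those left after the dimmest 40% of the 34945 with 1 gene symbol were taken out. Of the 28 probe sets, 18 passed that filter, 3 were called higher and 5 lower, and for none of these 8 did the fractions overlap, as was so for 13.4% of all probe sets tested. In all, 44.4% of the tested IGF probe sets were called, beside 20.7% of all probe sets tested, made up of 11.0% higher and 9.77% lower. The 13.4% without overlap were made up of 7.20% higher and 6.20% lower. The median difference was -0.21 over the 18 IGF probe sets and 0.02 over all tested. Igfbp6 1417933_at, 1 of the 3 called higher, had a CD34- mean under the filter limit and passed it through its CD34+ arrays. With no brightness filter, so that all 28 were tested, the same 8 were called. The list was chosen with earlier results of these data known, and probe sets of 1 gene are not independent of each other.

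**Figure D1:**
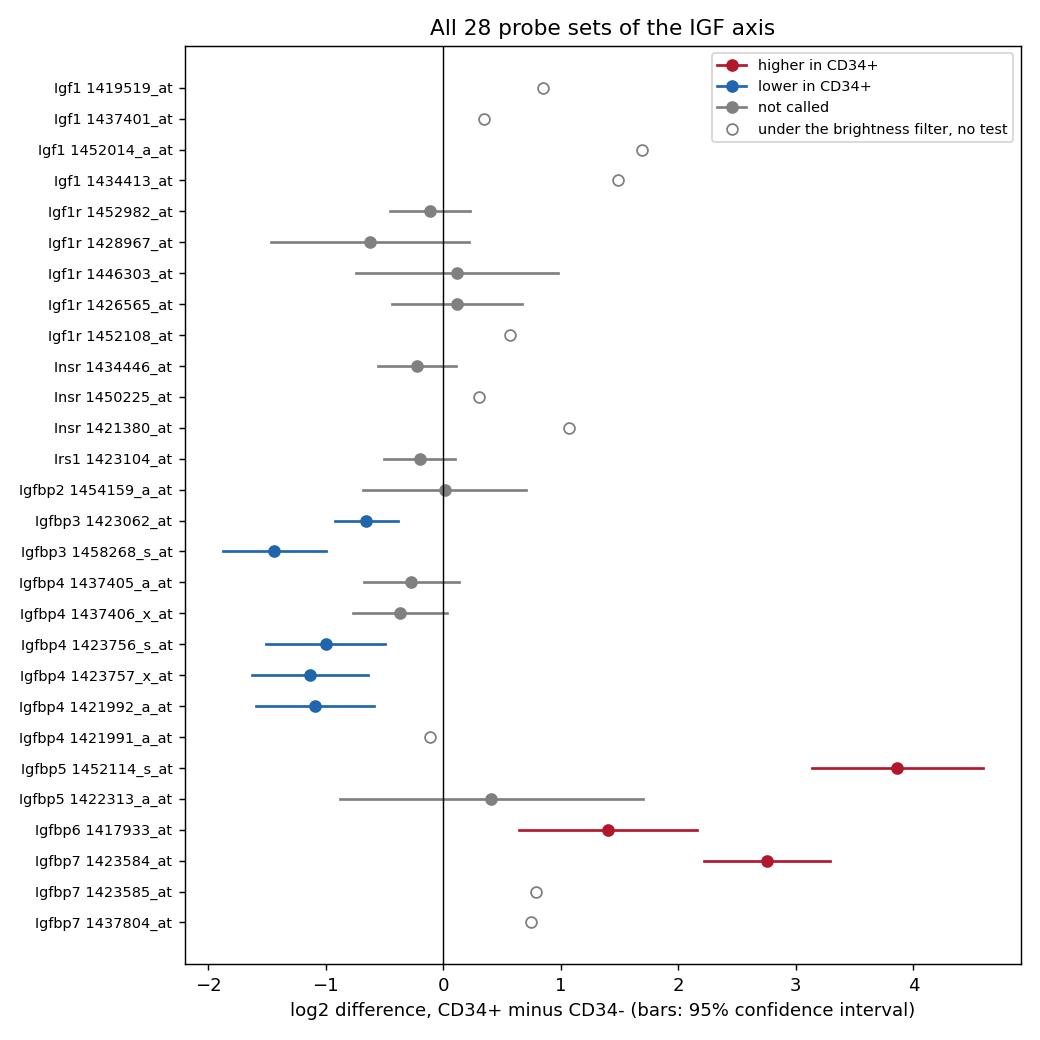
Log2 difference (horizontal axis, CD34+ minus CD34-) of each of the 28 IGF-axis probe sets, with 95% confidence intervals from limma for the 18 that were tested and open circles for the 10 under the brightness filter. Igfbp5 1452114_s_at and Igfbp7 1423584_at lie farthest to the right at 3.86 and 2.76, and the called probe sets of Igfbp3 and Igfbp4 lie between -1.44 and -0.65.

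The arrays were first checked against their labels. Cd34, the gene of the sorting marker, had a mean of 11.83 ± 1.17 in CD34+ cells (SD, n = 5) and 4.20 ± 1.57 in CD34- cells (SD, n = 6). The basal keratin genes Krt5 and Krt14 were bright in both fractions, with Krt5 means of 14.94 and 15.02 in CD34+ and CD34- cells (difference -0.07, adjusted p = 0.714) and Krt14 means of 14.05 and 14.36 (difference -0.31, adjusted p = 0.22). Both were called lower after quantile normalization (Krt5 -0.45, adjusted p = 0.004, and Krt14 -0.498, adjusted p = 0.0253) and with equal medians (-0.55, adjusted p = 0.00685, and -0.79, adjusted p = 0.00781), and Krt14 also without CD34+ array 3 (-0.49, adjusted p = 0.0213). The 6 bulge markers examined, Cd34 among them, were all called higher. The actin controls differed with the sort. The log2 ratio of the 3-prime to the 5-prime probe set is higher where the 5-prime end gives less signal. It was 2.91 to 5.25 on CD34+ arrays and 2.19 to 2.76 on CD34- arrays. CD34+ array 1 had the highest ratio.

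Igf1 transcript was dim. None of its 4 probe sets passed the brightness filter, so they have values and no test. The brightest, 1419519_at, read 7.13, 7.79, 5.50, 6.03 and 5.83 on CD34+ arrays 1 to 5, against a lowest of 4.90, a median of 5.52 and a highest of 6.45 on CD34- arrays. CD34+ arrays 1 and 2 lay above every CD34- array and the other 3 lay among them. On 3 of 5 CD34+ arrays and 4 of 6 CD34- arrays it was under the 40th percentile of all probe sets. Over the 4 probe sets the difference was 0.35 to 1.69, and all 4 overlapped between the fractions. The highest was that of 1452014_a_at, which was under the 40th percentile on 4 of 5 CD34+ and on all 6 CD34- arrays. With values under that percentile raised to it, its difference was 0.56. That percentile was itself higher on CD34+ arrays (6.04 to 6.66) than on CD34- arrays (5.63 to 5.87). Igfbp4 1421991_a_at, under it on every array, went from -0.12 to 0.55 in the same step. So the 0.56 cannot be read as a difference of Igf1. When every probe set was tested without the filter, 1452014_a_at had the lowest adjusted p of the 4, 0.0774.

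Igf1r, the receptor of IGF1, was bright on 2 of its 5 probe sets and was called on none of the 4 tested. The brightest, 1452982_at, read 9.95, 10.53, 9.79, 10.02 and 9.86 on CD34+ arrays 1 to 5, while CD34- arrays read 9.88 to 10.45 with a median of 10.16. The fractions overlapped almost fully, with a difference of -0.11 (95% confidence interval -0.45 to 0.23, adjusted p = 0.635). Probe set 1428967_at, designed on the same source sequence, read 7.14 on CD34+ array 1 and 9.36 to 9.89 on the other CD34+ arrays, while CD34- arrays read 9.20 to 10.11. That 1 array set its difference of -0.62 (adjusted p = 0.27), which was -0.13 without it. The probe sets 1446303_at and 1426565_at both differed by 0.11 (adjusted p = 0.864 and 0.78), and 1452108_at, under the filter, by 0.57. The differences of the 3 other tested probe sets from the brightest were 0.51 or less in size, with exact permutation p of 0.188 to 0.654.

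Insr, the insulin receptor gene, had 1 bright probe set, 1434446_at. It read 9.37, 10.15, 10.19, 9.94 and 10.03 on CD34+ arrays 1 to 5, and 10.04 to 10.41 with a median of 10.11 on CD34- arrays. CD34+ array 1 was the lowest of the 11. The difference was -0.23 (95% confidence interval -0.56 to 0.11, adjusted p = 0.309), and -0.08 without that array. The dim probe sets 1450225_at and 1421380_at had differences of 0.30 and 1.07 with wide overlap and were not tested. Irs1, the adaptor that couples both receptors to PI3 kinase, had 1 probe set, 1423104_at. It read 11.22, 11.25, 11.29, 11.19 and 10.90 on CD34+ arrays 1 to 5, against 11.04 to 11.71 with a median of 11.33 on CD34- arrays. It differed by -0.20 (95% confidence interval -0.51 to 0.10, adjusted p = 0.324). Both intervals include 0. With the arrays scaled to equal medians, which moved the median of all probe sets by -0.48, Igf1r 1452982_at (-0.59) and 1428967_at (-1.10), Insr 1434446_at (-0.71) and Irs1 (-0.68) were called lower, with the same differences relative to that median as before.

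Among the binding proteins, Igfbp5 had the highest difference. IGFBP5 binds extracellular matrix as well as IGFs. Probe set 1452114_s_at read 13.91, 12.38, 11.45, 12.89 and 12.97 on CD34+ arrays 1 to 5, against a lowest of 8.20, a median of 8.78 and a highest of 9.45 on CD34- arrays. Every CD34+ array lay far above every CD34- array. The means were 12.72 ± 0.90 (SD, n = 5) in CD34+ cells and 8.86 ± 0.43 (SD, n = 6) in CD34- cells, a difference of 3.86 (SE 0.34, adjusted p = 1.95e-05). The other probe set, 1422313_a_at, had a mean near the lower end of the tested signals, read 4.64 to 7.54 in CD34+ cells and 4.28 to 7.53 in CD34- cells, and differed by 0.41 (adjusted p = 0.653). On 2 of 5 CD34+ and 2 of 6 CD34- arrays it was under the 40th percentile. Its difference was smaller than that of the bright probe set by 3.455 log2 units (exact two-sided permutation p = 0.00216, adjusted p = 0.00649 over 9 pairs of probe sets). So the size of the Igfbp5 difference depended on the probe set, and 1422313_a_at was dim.

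Igfbp7 encodes a secreted protein of the family that binds IGFs weakly and is found in vessel walls and matrix. Probe set 1423584_at read 11.72, 11.33, 10.06, 11.69 and 11.03 on CD34+ arrays 1 to 5, against 8.11 to 8.67 with a median of 8.38 on CD34- arrays. The CD34- arrays lay close together and all CD34+ arrays lay above them. The difference was 2.76 (SE 0.25, adjusted p = 1.98e-05). Its other probe sets, 1423585_at and 1437804_at, were under the filter and under the 40th percentile on all 6 CD34- arrays, with differences of 0.79 and 0.75 and no test. Among CD34+ arrays, Igfbp5 and Igfbp7 were both highest on array 1 and lowest on array 3.

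Igfbp6, whose product prefers IGF2 over IGF1, was much dimmer. Its 1 probe set, 1417933_at, read 8.25, 7.07, 6.86, 6.71 and 7.33 on CD34+ arrays 1 to 5, against 5.05 to 6.43 with a median of 6.10 on CD34- arrays. The fractions did not overlap, but the lowest CD34+ array was only slightly above the highest CD34- array. The difference was 1.40 (SE 0.36, adjusted p = 0.0148). The CD34- mean of 5.84 was under the filter limit of 6.06, so the probe set passed through its CD34+ arrays (mean 7.24). On 2 of 6 CD34- arrays it was under the 40th percentile. That percentile was higher on CD34+ arrays (6.04 to 6.66) than on CD34- arrays (5.63 to 5.87). With values under that percentile raised to it, Igfbp6 differed by 1.24. Its call was lost after quantile normalization (difference 0.93, adjusted p of 0.0879), with CD34+ arrays 1 and 2 left out (1.125, adjusted p of 0.0558) and with the replicate number as a block (1.24, adjusted p of 0.0502). Igfbp2, a binding protein that also binds integrins, showed no such pattern. Probe set 1454159_a_at read 6.40, 8.49, 7.39, 7.17 and 6.96 on CD34+ arrays 1 to 5, against 6.84 to 7.76 with a median of 7.31 on CD34- arrays. The highest and the lowest of the 11 values were both on CD34+ arrays, and the difference was 0.01 (95% confidence interval -0.69 to 0.71, adjusted p = 0.986).

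**Figure D2:**
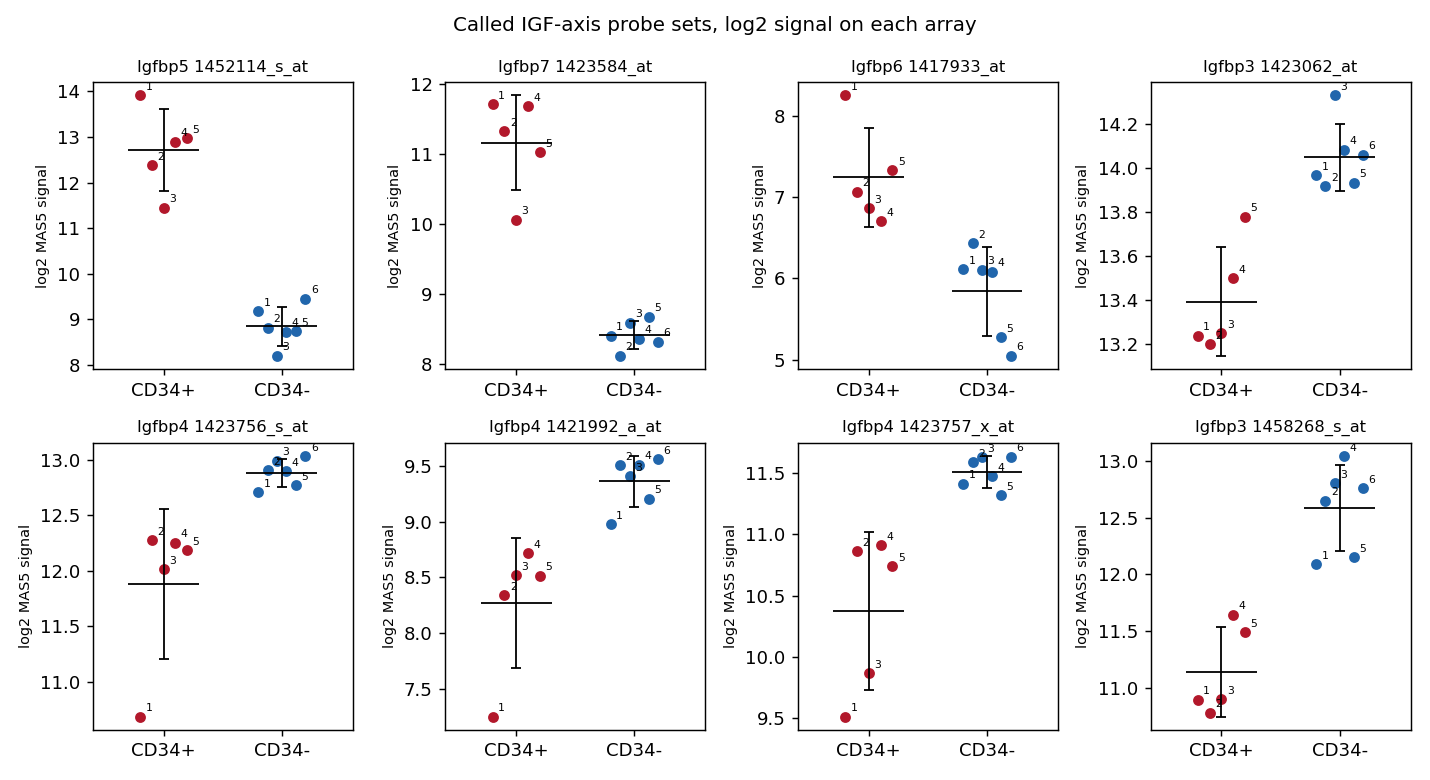
Log2 MAS5 signal (vertical axes, each panel with its own range) of the 8 called probe sets on each array, with CD34+ arrays left and CD34- arrays right, points numbered by array, and the mean with its SD in black. All CD34+ points lie above all CD34- points for Igfbp5, Igfbp7 and Igfbp6 and below them for Igfbp3 and Igfbp4.

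Igfbp3, the main carrier of IGFs in serum and a gene of basal keratinocytes, was bright in both fractions and lower in CD34+ cells on both of its probe sets. Probe set 1423062_at read 13.24, 13.20, 13.25, 13.50 and 13.78 on CD34+ arrays 1 to 5, against 13.92 to 14.33 with a median of 14.01 on CD34- arrays. The difference was -0.65 (SE 0.13, adjusted p = 0.0034). Probe set 1458268_s_at read 10.90, 10.78, 10.90, 11.65 and 11.49 on CD34+ arrays 1 to 5, against 12.09 to 13.04 with a median of 12.70 on CD34- arrays. Its difference was -1.44 (SE 0.20, adjusted p = 5.26e-04), a level 2.71-fold lower in CD34+ cells. On both, CD34+ arrays 4 and 5 came nearest to the CD34- arrays. The dimmer probe set fell by more than the brighter, by 0.78 log2 units (exact two-sided permutation p = 0.00649, adjusted p = 0.0117 over 9 pairs of probe sets).

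Igfbp4, which encodes an inhibitor of IGF action that is cut by the protease PAPP-A, fell on 3 of its 5 tested probe sets. Probe set 1423757_x_at read 9.51, 10.86, 9.86, 10.91 and 10.74 on CD34+ arrays 1 to 5, against 11.32 to 11.64 with a median of 11.53 on CD34- arrays. It differed by -1.13 (SE 0.23, adjusted p = 0.00482). Probe set 1423756_s_at read 10.68, 12.27, 12.01, 12.25 and 12.18 on CD34+ arrays 1 to 5, while CD34- arrays read 12.71 to 13.03, a difference of -1.002 (SE 0.24, adjusted p = 0.0104). All CD34+ arrays lay below all CD34- arrays on both. Probe set 1421992_a_at read 7.25, 8.34, 8.52, 8.72 and 8.52 on CD34+ arrays 1 to 5, while CD34- arrays read 8.98 to 9.56 with a median of 9.46. It differed by -1.09 (SE 0.24, adjusted p = 0.0067). On these 3, CD34+ array 1 was the lowest of all arrays, and without it they differed by -0.92, -0.70 and -0.84 and were still called.

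The 2 brightest Igfbp4 probe sets gave smaller differences. Probe set 1437405_a_at read 12.95 on CD34+ array 1 and 13.98 to 14.23 on the other CD34+ arrays, while CD34- arrays read 14.01 to 14.35, a difference of -0.27 (adjusted p = 0.311), and of -0.05 without CD34+ array 1. Probe set 1437406_x_at differed by -0.37 (adjusted p = 0.164), and the dim 1421991_a_at, not tested, by -0.12. The 3 called probe sets differed from 1437405_a_at by 0.73 to 0.86 log2 units in their CD34+ minus CD34- difference (exact two-sided permutation p of 0.00216, the smallest that these arrays can give, to 0.00433, adjusted p of 0.00649 to 0.00974 over the 9 pairs). So the size of the Igfbp4 difference depended on the probe set. In the array maker's naming, the endings _s_at and _x_at mark probe sets whose probes can bind more than 1 transcript. The called Igfbp5 1452114_s_at and Igfbp3 1458268_s_at carry such an ending as well, and so does Igfbp4 1437406_x_at, which was not called.

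**Figure D3:**
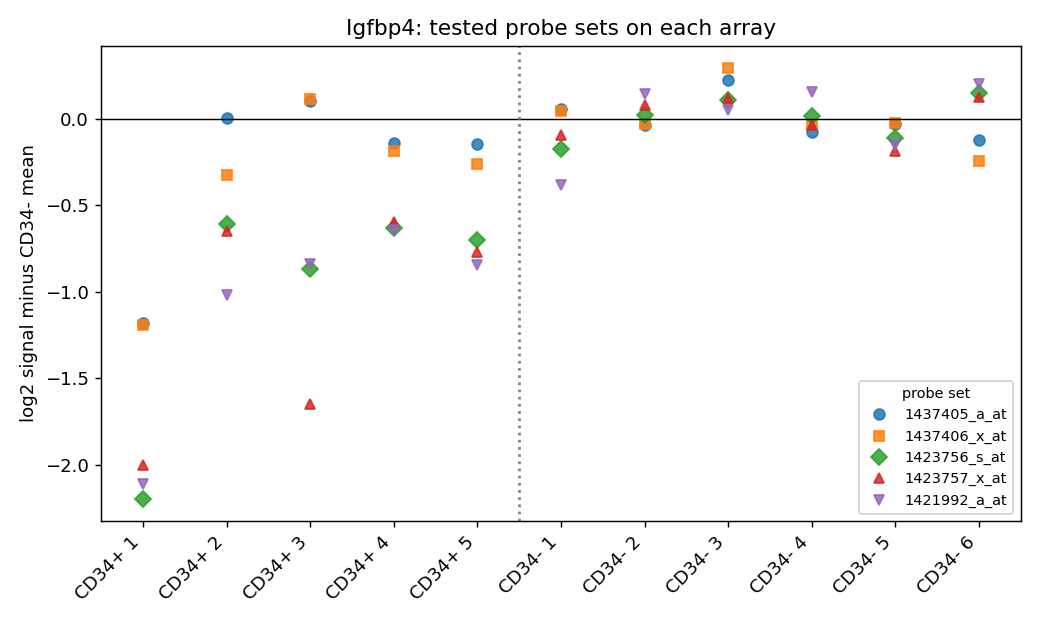
Log2 signal of the 5 tested Igfbp4 probe sets on each array (horizontal axis, CD34+ arrays left of the dotted line), relative to the mean of the CD34- arrays for that probe set. The called probe sets 1423756_s_at, 1423757_x_at and 1421992_a_at lie below 0 on all 5 CD34+ arrays, while 1437405_a_at and 1437406_x_at lie nearer to 0 on 4 of them and lowest on CD34+ array 1.

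The upstream sequences of Igfbp5 and Igfbp7, higher in CD34+ cells, are shown so that they can be set beside those of Igfbp3 and Igfbp4, the genes that were lower. Igfbp6, whose call was lost in several settings, is not shown. They are the 250 bases before the transcription start in RefSeq (GRCm38.p6), 5′ to 3′ on the gene's strand, at chr1:72874866-72875115 (minus strand) for Igfbp5, chr5:77408046-77408295 (minus) for Igfbp7, chr11:7213924-7214173 (minus) for Igfbp3 and chr11:99040994-99041243 (plus) for Igfbp4. Capitals mark matches on either strand to the motifs searched, which were TATAAA and its variants TATATA and TTTAAA for the TATA box, GGGCGG for the GC box, CCAAT for the box of that name and TGTTTAC for FoxO factors, which Akt holds out of the nucleus. No matches overlapped each other, and all 4 genes matched an entry in the sequence table.
Igfbp5: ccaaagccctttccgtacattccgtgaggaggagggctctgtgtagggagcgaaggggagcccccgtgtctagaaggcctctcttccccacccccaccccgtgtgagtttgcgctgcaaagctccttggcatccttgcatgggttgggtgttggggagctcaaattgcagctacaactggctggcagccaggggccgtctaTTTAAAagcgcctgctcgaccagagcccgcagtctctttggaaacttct
Igfbp7: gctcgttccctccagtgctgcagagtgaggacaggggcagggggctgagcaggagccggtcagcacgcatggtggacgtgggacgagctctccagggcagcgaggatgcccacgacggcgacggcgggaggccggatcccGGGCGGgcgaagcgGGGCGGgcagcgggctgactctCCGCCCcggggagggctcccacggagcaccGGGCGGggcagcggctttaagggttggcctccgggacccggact
Igfbp3: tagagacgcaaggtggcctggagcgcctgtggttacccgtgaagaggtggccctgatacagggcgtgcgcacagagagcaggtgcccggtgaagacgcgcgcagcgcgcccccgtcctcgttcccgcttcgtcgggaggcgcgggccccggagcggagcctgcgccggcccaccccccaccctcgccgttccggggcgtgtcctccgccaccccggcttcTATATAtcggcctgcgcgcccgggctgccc
Igfbp4: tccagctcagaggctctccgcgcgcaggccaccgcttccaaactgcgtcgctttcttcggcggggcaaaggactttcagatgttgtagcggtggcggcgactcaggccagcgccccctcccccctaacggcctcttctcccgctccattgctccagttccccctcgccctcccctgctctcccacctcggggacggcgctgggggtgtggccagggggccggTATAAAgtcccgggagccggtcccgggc
Igfbp5 had TTTAAA beginning 49 bases before the start, Igfbp3 had TATATA at 30 bases and Igfbp4 had TATAAA at 28 bases. Igfbp7 had none of these and held GGGCGG at 4 places within 110 bases of the start. Over the same window of 32851 RefSeq promoters, TTTAAA occurred in 12.1%, TATATA in 5.25%, TATAAA in 12.4% and GGGCGG in 32.7%. No window of the 4 held CCAAT or TGTTTAC, which occurred in 33.8% and 3.17% of promoters. These matches are descriptions of the letters, and TATA-type letters lay in windows of genes that differed in opposite directions.

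Marker genes of other cell types moved with the same comparison. Their levels are given as the sum of linear signals over each list. The sum of 8 fibroblast and dermal papilla markers was 3199 to 8789 on CD34+ arrays and 528 to 922 on CD34- arrays. Col1a2 (difference 3.49), Dcn (1.53), Pdgfra (1.59) and Col3a1 were called higher. Col1a1 (0.98), Lum (0.31), Dpt (0.24) and Twist2 (3.25) were under the brightness filter and not tested. Col3a1 had a CD34- mean of 4.25, under the filter limit, and passed it through its CD34+ arrays. For Col3a1, 4 of 6 CD34- values were under the 40th percentile, and its difference of 4.17 was 2.40 with such values raised to it. The Pdgfra call was lost when CD34+ array 2 was left out (1.25, adjusted p of 0.0506), when array 1 was left out with it (1.17, adjusted p of 0.0941), after quantile normalization (1.31, adjusted p = 0.0545) and in the permutation test (adjusted p = 0.0619). With the actin ratio in the model, Col1a2 alone of these 4 was called. Lum was under the 40th percentile on 4 of 5 CD34+ and all 6 CD34- arrays. The sum of the list was also highest on CD34+ array 1 and lowest on CD34+ array 3, as Igfbp5 and Igfbp7 were. Of the 4 called markers, Col1a2 alone had that order. It was the brightest of the list in CD34+ cells, with a mean of 11.70 against 8.42 for Col3a1, the next. Col1a2 therefore weighed most in the sum of linear signals. Dcn (8.12), Col3a1 (7.09) and Pdgfra (6.56) were lowest on CD34+ array 5, and Pdgfra was highest on array 2. The 6 bulge markers summed to 7309 to 25934 on CD34+ arrays and 2421 to 2895 on CD34- arrays, highest on array 1 and lowest on array 2. The 7 macrophage markers summed to 1927 to 4250 and 875 to 1602 in CD34+ and CD34- cells, with 3 called higher. These were C1qb (1.95), Csf1r (1.20) and Adgre1 (1.03). The Csf1r call was lost with equal medians (0.72, adjusted p of 0.128) and without CD34+ arrays 4 and 5 (0.60, adjusted p of 0.138). It held in 7 of the 11 fits that leave out 1 array. Adgre1 lost its call after quantile normalization (0.74, adjusted p of 0.0657) and with equal medians (0.55, adjusted p of 0.0907). With the actin ratio in the model, Csf1r alone of these 3 was called. The 5 smooth muscle and pericyte markers summed to 440 to 4179 in CD34+ cells and 340 to 514 in CD34- cells, with Acta2 called higher (2.05, adjusted p = 0.0177). That call was lost when CD34+ arrays 1 and 2 were left out (1.25, adjusted p of 0.105), and in the model holding the actin ratio (1.28, adjusted p of 0.562).

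Of the 5 endothelial markers none was called and 4 were under the filter. Cdh5 was under the 40th percentile on every array and Pecam1 on 4 of 5 CD34+ and all 6 CD34- arrays, and the sums were 170 to 356 in CD34+ cells and 127 to 266 in CD34- cells. T cell markers went the other way, with 4 of the 5 on the array called lower and sums of 365 to 1317 in CD34+ cells and 1934 to 3989 in CD34- cells. Of these, Cd7 had a CD34+ mean of 5.095, under the filter limit, and passed it through its CD34- arrays. None of the 5 melanocyte markers was called, with sums of 4303 to 5663 in CD34+ cells and 3540 to 22608 in CD34- cells. CD34- arrays 1 and 2 had 20231 and 22608, while the other CD34- arrays had 3540 to 5244. The same 2 arrays had the lowest T cell sums among CD34- arrays, 1934 and 2248. Of the 5 keratinocyte markers Itga6 (-0.53, adjusted p = 0.00273) and Trp63 (-0.38, adjusted p = 0.0462) were called lower, the Trp63 call being lost in 16 of 27 alternatives, among them 9 of the 11 that leave out 1 array. The list had sums of 84490 to 102727 in CD34+ cells and 92942 to 119805 in CD34- cells. The part of these other cell types in the IGF results was not tested, and in such bulk fractions fewer cells of a type and less RNA per cell cannot be told apart.

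The actin ratio was then added to the model. The ratio did not overlap between the fractions, and with it 124 of all probe sets were called higher and 25 lower. Igfbp5 1452114_s_at differed by 3.41 (SE 0.53, adjusted p = 0.0129) and Igfbp7 1423584_at by 2.65 (SE 0.41, adjusted p = 0.0121), and both were called. The other 6 lost their calls. Igfbp6 differed by 0.91 (adjusted p = 0.522), the Igfbp3 probe sets by -0.34 and -0.93 (adjusted p = 0.404 and 0.163) and those of Igfbp4 by -0.29 to -0.51 (adjusted p of 0.516 to 0.718). Without CD34+ arrays 1 and 2, which had the highest ratios, all 5 probe sets of Igfbp3 and Igfbp4 were called lower and those of Igfbp5 and Igfbp7 higher. The CD34+ arrays left had ratios of 2.91 to 3.97, still above the highest CD34- array (2.76). Ratio and fraction therefore cannot be told apart in that setting either. Without CD34+ arrays 4 and 5, which had the highest macrophage sums, all 8 were called. Of the called macrophage markers, Csf1r alone was highest on these arrays (11.66 and 11.52). C1qb was lowest on them, with 7.81 on array 4, and Adgre1 was highest on array 2 (8.68). Cd14 and Lyz2, not called, were highest on array 5. So this setting leaves out the highest Csf1r values, but not the highest of C1qb or Adgre1.

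**Figure D4:**
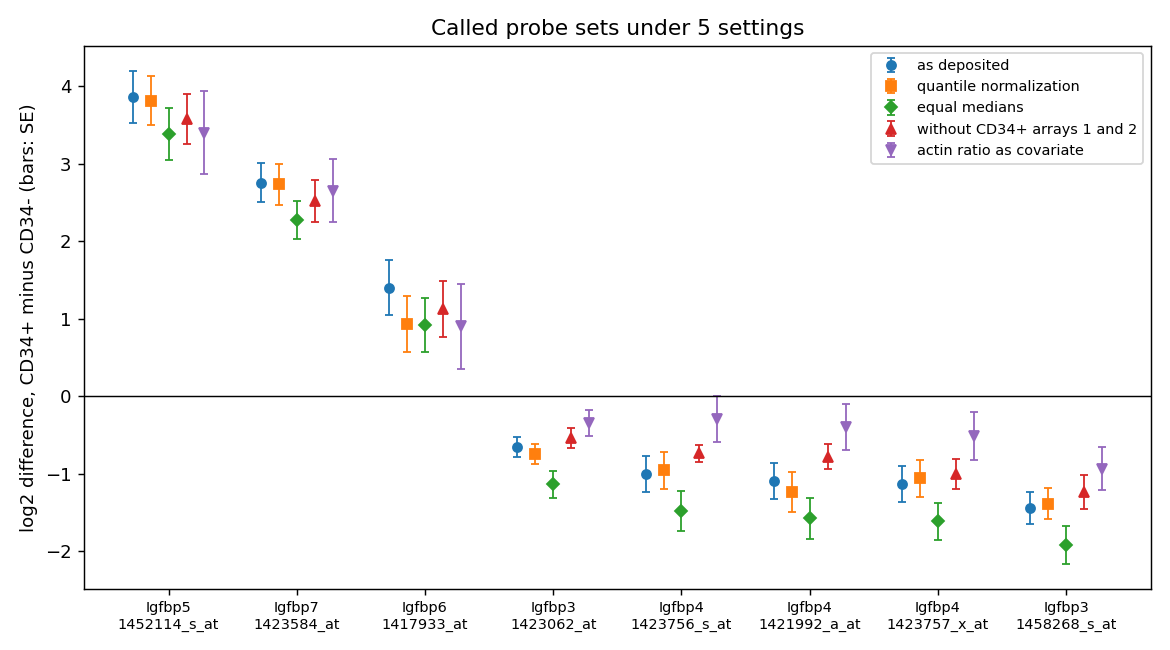
Log2 difference with its SE (vertical axis, CD34+ minus CD34-) of the 8 called probe sets with values as deposited and under 4 other settings. Igfbp5 and Igfbp7 stay above 2 in each, and the negative differences of Igfbp3 and Igfbp4 come nearest to 0 with the actin ratio as a covariate.

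Of 30 further genes of the pathway, 27 had a probe set with 1 symbol and 18 were tested on the brightest, 2 were called higher and 1 lower, and 15 were not called. Beside the 11.0% and 9.77% over all probe sets these 3 calls are close to or under the background, and the median difference was 0.03. That background counts every probe set, while each pathway gene stood for 1. With 1 probe set per gene, the brightest, 1350 of 10916 were called higher and 1347 lower. Grb14, an adaptor that binds the insulin and IGF1 receptors and dampens their signal, read 11.02, 9.59, 9.58, 10.23 and 10.03 on CD34+ arrays 1 to 5, while CD34- arrays read 8.36 to 9.06. The groups did not overlap, and the difference was 1.497 (SE 0.24, adjusted p = 0.00118). Htra1, a secreted serine protease that can cut IGF binding proteins, read 12.57, 12.79, 13.25, 12.80 and 13.14 on CD34+ arrays 1 to 5, while CD34- arrays read 13.31 to 13.59. It differed by -0.53 (SE 0.13, adjusted p = 0.0119), and its other tested probe set by -0.63 (adjusted p = 0.00711). Without CD34+ arrays 1 and 2 its difference was -0.375 (adjusted p = 0.0505).

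Igf2bp3, which encodes an RNA-binding protein named for its binding of Igf2 mRNA, differed by 1.11 (SE 0.31, adjusted p = 0.0229) with overlap between the fractions, and its next probe set by 0.59 (adjusted p = 0.182). Its call was lost without CD34+ array 2 (0.90, adjusted p = 0.0535), without CD34- array 4 (1.02, adjusted p = 0.0512) and after quantile normalization (0.90, adjusted p = 0.0598). With the actin ratio in the model none of the 3 was called (adjusted p = 0.19 for Grb14, 0.548 for Htra1 and 0.601 for Igf2bp3). The related adaptor Irs2 (-0.93, adjusted p = 0.158), the IGF2 receptor gene Igf2r (-0.36, adjusted p = 0.546) and the PI3 kinase subunit genes Pik3r1 (0.04, adjusted p = 0.925) and Pik3ca (0.06, adjusted p = 0.806) were not called. Igf2, Pappa, Pappa2, Igfals and Igfbp1 were under the brightness filter.

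The genes most like the called IGF probe sets were sought over the 11 arrays by Pearson correlation of log2 values, among 11882 other genes. All pairs share the split into fractions and the actin ratio that goes with it, so a gene that differs strongly between fractions scores high. Igfbp5 1452114_s_at was most like Col6a2, a collagen VI chain (r = 0.992), Minar2 (r = 0.99) and Plpp1, a lipid phosphatase (r = 0.99), which differed by 3.94, 4.64 and 3.67. Igfbp3 1458268_s_at was most like Ubqln1, a ubiquitin-like shuttle protein (r = 0.991), the calpain protease gene Capn1 (r = 0.984) and D16Ertd472e (r = 0.981), which differed by -0.98, -1.67 and -0.999.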

How the data were processed

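Total RNA from 5 CD34+ and 6 CD34- keratinocyte samples was measured on single-channel Affymetrix arrays, 1 per sample, and groups were taken from the sample titles. The authors deposited 1 log2 value per probe set and array, with the MAS5 algorithm per the submitters' processing notes and its version not given in the sources used here. That these values are log2 follows from the data: taken as powers of 2, their mean trimmed by 2% at each end was 500.002 to 500.004 on every array. Values were used as deposited, with no detection calls, and the number of arrays limits the precision. Of 45101 probe sets 34945 had 1 gene symbol in the platform annotation, 932 had several, 9160 had none and 64 were controls. All 28 IGF-axis probe sets matched a RefSeq gene.

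The dimmest 40% of probe sets with 1 symbol, by the mean over all arrays, were left out. The other 20967, all with a mean of at least 6.06, were fitted with limma 3.58.1 in R 4.3.3 (linear model, empirical Bayes with intensity trend, Benjamini-Hochberg adjustment over all of them). The median standard error was 0.22. Probe sets of 1 gene were compared by an exact two-sided permutation test over all splits of the 11 arrays. For pathway and marker lists each gene was represented by its brightest probe set. Genes named were all members, the pathway genes called, label checks, markers and the 3 genes most like the member with the smallest p in each direction; Irs2, Igf2r, Pik3r1, Pik3ca and the second probe sets were named after their values were seen. Members and lists were chosen with earlier results of these data known. The limma step was tested on simulated data. Alternatives were other normalizations, brightness filters, moderation and tests, the actin ratio, the replicate number as a block, and arrays left out.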

Additional observations from a re-analysis of the deposited data

Results flagged for a closer look

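In 6 of 56 groups of values (28 probe sets, 2 fractions) 1 array stood apart from the rest by Dixon's test, and chance gives about 1 in 20. In 4 of the 6 it was CD34+ array 1, the array with the highest actin ratio, and it was the lowest of its group each time. These were Igf1r 1428967_at (7.14, the next 9.36), Igfbp4 1437405_a_at (12.95, the next 13.98), Igfbp4 1423756_s_at (10.68, the next 12.01) and Igfbp4 1421992_a_at (7.25, the next 8.34). The other 2 were Irs1 1423104_at on CD34+ array 5 (10.90, the next 11.19) and the dim Insr 1450225_at on CD34- array 4 (3.73, the next 5.62). The part of a weak 5-prime signal, which that ratio reflects, in the 4 low values was not tested.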

How the results depend on the processing

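Igfbp5 1452114_s_at and Igfbp7 1423584_at were called higher in all 27 alternatives run, with differences of 3.39 to 4.18 and 2.28 to 3.03. The number of IGF probe sets higher (3) was 2 to 3 in them all. The number lower (5) was 11 with equal medians, 1 with 1 probe set per gene and 0 with the actin ratio (limma, 25 lower calls among all probe sets). Leaving out 1 array gave 3 higher and 5 lower each time. Of the pathway genes, 2 were higher and 1 lower. The higher count was 1 after quantile normalization, with equal medians, in the exact permutation test, without CD34+ arrays 1 and 2 and at adjusted p under 0.01, and 0 with the actin ratio. The lower count was 6 with equal medians, 2 with array weights and in the exact permutation test, and 0 with the actin ratio, without CD34+ arrays 1 and 2 and at adjusted p under 0.01. Leaving out 1 array gave 1 to 2 higher and 1 to 2 lower pathway genes, the change coming without CD34+ array 2, CD34- array 4 (higher) or CD34+ array 3 (lower).

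Scaling moved the median of all probe sets, 0.02 as deposited, by -0.12 with quantile normalization and -0.48 with equal medians. The share of calls that were higher was 52.9% as deposited, 38.4% and 7.57%. The 6 lower calls added with equal medians were those of Igf1r 1452982_at (-0.59) and 1428967_at (-1.10), Insr 1434446_at, Irs1 and Igfbp4 1437405_a_at (-0.75) and 1437406_x_at (-0.85). Calls over all probe sets, 2296 higher and 2048 lower, were 1381 and 2211 after quantile normalization, 675 and 8239 with equal medians, 1431 higher with the dimmest 60% left out, 1350 and 1347 with 1 probe set per gene, 1520 and 1361 without CD34+ arrays 1 and 2, 859 and 652 at adjusted p under 0.01, and 1360 lower without CD34- array 4.

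Differences of the other sign, none of them called, were those of Igf1r 1446303_at (-0.25 quantile, -0.37 equal medians), Igf1r 1426565_at (-0.34, -0.37, -0.23 with the actin ratio, -0.079 without CD34+ arrays 1 and 2), Igfbp2 (-0.33, -0.47, -0.062, -0.10, and -0.045 with array weights) and Igfbp5 1422313_a_at (-0.057, -0.07, and -0.052 without CD34+ arrays 4 and 5). With the actin ratio they were those of Igf1r 1428967_at (0.50), Igfbp4 1437405_a_at (0.22) and 1437406_x_at (0.17), and without CD34+ arrays 4 and 5 that of Krt5 (0.11). The difference between Igf1r probe sets turned to 0.19 (1446303_at) and 0.28 (1426565_at) after quantile normalization. Leaving out 1 array gave -0.066 to 0.48 for Igf1r 1446303_at, -0.29 to 0.23 for Igfbp2 and -0.576 to 0.014 for the pair of Igf1r 1452982_at and 1446303_at. The causes were not tested.

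With the replicate block, 2 IGF probe sets were higher and 5 lower, Igfbp6 losing its call (1.24, adjusted p = 0.0502). Deviations of arrays with the same number correlated by 0.02 to 0.18 and no CD34+ array correlated best with its own number, so the numbers were not taken as pairs. Dim signals limit what can be said of Igf1.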
